A study of Vanessa cardui and Junonia coenia with 16 samples.

Results

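The forewings of 1 painted lady butterfly (Vanessa cardui) at the pupal stage named for ommochromes were set against knockout forewings of the same species at the stage named for melanin. These 4 RNA-seq libraries, of 16 in the series, were chosen by their labels alone. The first 2 are both forewings of a single mosaic optix knockout individual, and they carry different labels. One wing is labelled as having large defects and the other as having small defects, which the study describes as very small. The other 2 libraries are replicate knockout forewings labelled as having large defects, at the melanin stage. A further 4 V. cardui libraries, 2 wild-type forewings and 2 knockout hindwings with large defects, both of the melanin stage, were used to estimate the spread and for side-by-side levels. All caterpillars were obtained from a commercial supplier and reared at 27 °C on artificial diet. The labels do not say whether the 2 knockout forewings came from separate animals, so p-values measure the spread between libraries, which may be partly technical.

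Butterfly wing colour is laid down scale by scale in the pupa. Orange and red ommochromes are made from tryptophan and dark melanins from tyrosine, and the ommochromes become visible before the melanins do. The transcription factor optix is known for switching wing scales to ommochrome colour, and in several butterflies for acting on melanin and on structural colour as well. A mosaic knockout wing holds patches of mutant cells among unaltered ones, so bulk RNA from it averages over both. The share of mutant cells was not measured in any of these wings. Fewer cells of a type and less RNA per cell cannot be told apart in bulk RNA.

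Abundance was given for each row of a transcriptome assembly as FPKM, a fragment count divided by transcript length and by the library's total. Of 74995 rows, 18317 averaged at least 1 FPKM over the 4 libraries and were tested. The rows carry assembly identifiers only (0 of them occur in the table of RefSeq genes). Hence optix, pigment genes and markers of the wing or of other cell types are not analysed here. Genotype, stage and tissue rest on the labels. Relative depth, estimated from low values, was 1.89 in the large-defect and 2.25 in the small-defect mosaic wing, against 1.0 in knockout forewing 1 and 1.95 in knockout forewing 2. Of the tested rows, 1288 and 866 were listed at 0 in the large- and small-defect wings, against 2423 in knockout forewing 1 and 1085 in knockout forewing 2. Knockout forewing 1 was therefore the shallowest library and the one with the most rows at 0 among these 4. The 10 most abundant rows held 39.4% and 35.8% of total FPKM in the large- and small-defect wings, against 38.3% and 34.6% in knockout forewings 1 and 2.

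By correlation over all tested rows, the ommochrome-stage animal resembled the melanin-stage knockout forewings about as closely as those 2 libraries resembled each other. Correlations below are Pearson's r of log2(FPKM + 1) across the 18317 rows, which are not independent replicates. The large-defect wing correlated at 0.855 and 0.879 with knockout forewings 1 and 2, and the small-defect wing at 0.827 and 0.884. The 2 knockout forewings correlated with each other at 0.857, inside that range, but this pair includes the shallowest library. Other melanin-stage libraries of the same label were closer, at 0.899 for the wild-type forewings and 0.896 for the knockout hindwings. Both values exceed those of every mosaic wing with a knockout forewing. The 2 mosaic wings, which share an animal and a stage, correlated at 0.907. With the wild-type forewings the small-defect wing correlated at 0.874 and 0.832, and the large-defect wing at 0.825 and 0.776. The small-defect wing was thus nearer to both wild-type libraries than the large-defect wing was, by a measure that can also move with depth. Depth was 3.03 and 2.13 in the wild types, and higher in the small-defect than in the large-defect wing.

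Differences between libraries were largest among rows of low level. Among rows averaging 1 to 5 FPKM the median absolute difference between the mosaic wings was 0.43 (log2), against 0.62 between the knockout forewings. Between a mosaic wing and a knockout forewing it ran from 0.45 to 0.76, with the highest value for the small-defect wing and knockout forewing 1. Among the 850 rows of at least 100 FPKM it was 0.16 between the mosaic wings and 0.26 between the knockouts. There, each of the 4 pairs of a mosaic wing with a knockout forewing differed more than the knockouts did, with medians of 0.29 to 0.34. In 3 of these 4 pairs the median difference was larger at that level than among rows of 20 to 100 FPKM (0.34 against 0.30 for the large-defect wing and knockout forewing 2), while it was smaller for the mosaic wings and for the knockouts.

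**Figure D1:**
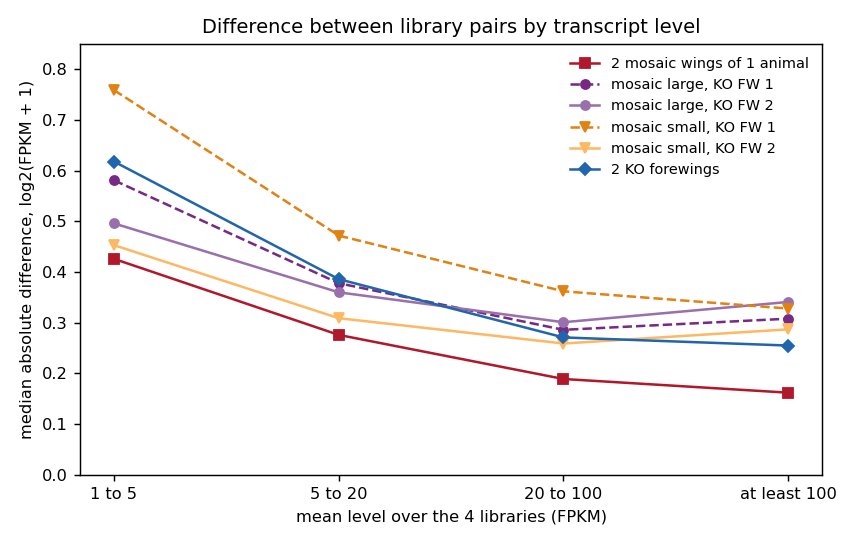
Median absolute difference in log2(FPKM + 1) between 2 libraries (y axis) for rows in 4 classes of mean FPKM (x axis). Each line is 1 of the 6 pairs that the 2 mosaic wings and 2 knockout (KO) forewings (FW) form. The mosaic wings form the lowest line in every class, and among rows of at least 100 FPKM the 4 pairs of a mosaic wing with a knockout forewing lie above the pair of knockouts.

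The most abundant transcripts were largely the same. Of the 10 rows with the highest mean in the mosaic wings, 9 were also among the 10 highest of the knockout forewings, and of the first 50, 44 were shared. The most abundant row was at 104463 and 88871 FPKM in the large- and small-defect wings, against 89135 and 83508 FPKM in knockout forewings 1 and 2. The groups overlapped at this row, as they did at 6 of the first 10 in all. The row ranked seventh was at 37344 and 34907 FPKM in the mosaic wings, against 18821 and 20949 FPKM in the knockout forewings. Its difference of 0.86 (log2) was the highest of the first 10, and it was not called (adjusted p = 0.9995, limma). Among the first 50 rows the differences ran from -1.13 to 1.23, and 5 were at least 1 in size.

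The comparison of the mosaic animal with the knockout forewings asks which transcripts differ between an ommochrome-stage and melanin-stage forewings that both carry optix mutant tissue. Stage, animal and extent of the knockout differ together here and cannot be told apart. Because both mosaic wings came from 1 animal, their mean on the log2(FPKM + 1) scale entered the test as 1 sample, which was assumed to vary like the melanin-stage groups. No row passed an adjusted p of 0.05 (0 of 18317, 0%, limma, smallest adjusted p = 0.216). An unadjusted p under 0.05 was reached by 793 rows (4.33%), 501 higher and 292 lower in the mosaic animal, where 916 would do so with no effect at all. Rows did pass when knockout forewing 1 or 2 was left out, but the lone knockout library then adds nothing to the spread. Both of those fits share the mosaic animal and take their spread from the same wild-type forewings and knockout hindwings. The median difference was -0.03 (log2) without knockout forewing 1 and 0.15 without knockout forewing 2, against 0.07 with both. Entering the 2 mosaic wings as if they were independent animals gave 10 calls, 4 higher and 6 lower.

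Taken apart, neither wing gave a call. The large-defect wing, whose genotype label is that of the knockout forewings, had 0 calls (0%, limma, smallest adjusted p = 0.178) and 955 rows (5.21%) at an unadjusted p under 0.05, 484 higher and 471 lower. The small-defect wing had 0 calls (0%, limma, smallest adjusted p = 0.11) and 1054 rows (5.75%) at an unadjusted p under 0.05, 681 higher and 373 lower. The median row was 0.01 (log2) above the knockouts in the large-defect wing and 0.13 above them in the small-defect wing. Quantile normalization put these medians at 0.01 and -0.02, so the sign in the small-defect wing depends on the scaling.

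Size and separation were described next, with no test. The mosaic animal was at least 1 (log2) above the knockout mean in 1710 rows (9.34%) and at least 1 below it in 1155 rows (6.31%). Without the shallow knockout forewing 1 these counts were 1431 and 1529, so the excess of higher rows turned round. Without knockout forewing 2 they were 3175 and 1471. In the large-defect wing alone the counts were 1660 higher and 1682 lower, and in the small-defect wing 2278 higher and 1346 lower. Both mosaic wings lay above both knockout forewings in 4068 rows (22.2%) and below both in 3335 rows (18.2%). Some rows separate 2 libraries from 2 others with no effect at all, and that share was not estimated. For scale, both knockout forewings lay below both wild-type forewings in 27.4% of the same rows and above both in 26.7%. Which direction led between the mosaic wings and the knockout forewings depended on the setting too. Quantile normalization gave 3718 rows above and 3885 below, knockout forewing 2 alone gave 5887 above and 6829 below, and knockout forewing 1 alone gave 8395 above and 5654 below. Against both knockouts, 59 of the separated rows were higher by at least 3, and 41 were lower by as much.

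**Figure D2:**
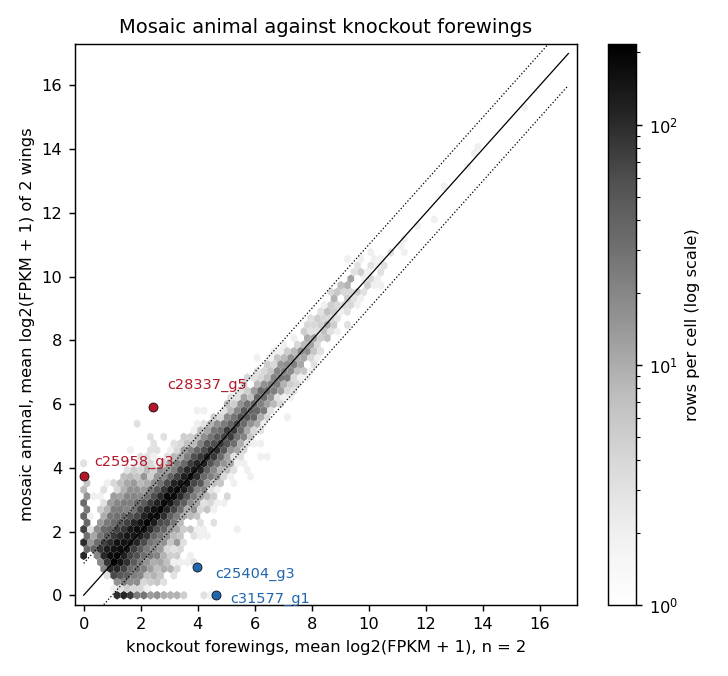
Mean log2(FPKM + 1) of the 2 mosaic wings (y axis) against the mean of the 2 melanin-stage knockout forewings (x axis) for the 18317 tested rows, shaded by the number of rows on a log scale. The solid line marks equal levels and the dotted lines a difference of 1. The 4 labelled rows are those described in the text, 2 higher (red) and 2 lower (blue) in the mosaic animal.

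Among rows measured above 0 in all 4 libraries, c28337_g5 was the one furthest above the knockouts by the naming rule. That rule takes the largest separated difference at an unadjusted p under 0.01 whose assembly component, the set of rows sharing a c number, moves the same way. Its level was 60.9 FPKM in the large-defect and 56.4 FPKM in the small-defect wing, against 4.40 and 4.41 FPKM in knockout forewings 1 and 2. The groups were far apart and tight within themselves, with a difference of 3.46 (log2, SE 0.24, adjusted p = 0.216, limma). The wild-type forewings, at 35.1 and 31.7 FPKM, lay nearer to the mosaic wings, and the knockout hindwings, at 6.36 and 6.03 FPKM, nearer to the knockout forewings. The row was thus low in all 4 melanin-stage knockout libraries and higher in the mosaic and wild-type forewings. For the summed FPKM of its component (3 tested rows) the difference was 1.53 (log2). The sum did not keep the order of the row in the other libraries. It was 68.0 and 57.7 FPKM in the wild-type forewings, against 41.4 and 73.3 FPKM in knockout hindwings 1 and 2. For the row itself the difference was 3.46 without knockout forewing 1 and 3.47 without knockout forewing 2. It passed with the mosaic wings entered as independent (adjusted p = 0.00742, limma), though both are from 1 animal. The row was picked for its difference in these same data. Over all alternatives its adjusted p ran from 0.000275, without the filter on low values, to 0.76, for the component sum.

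By the same naming rule, c25958_g3 was the row furthest above the knockouts among those listed at 0 in both knockout forewings. Some rows at 0 there were higher, up to 50.9 FPKM in a mosaic wing, but did not meet the rule. The level of c25958_g3 was 10.8 and 13.8 FPKM in the large- and small-defect wings, against 0 in knockout forewings 1 and 2. The wild-type forewings held 6.43 and 19.6 FPKM and the knockout hindwings 5.52 and 5.31 FPKM, so the knockout forewings alone were at 0. The difference of 3.73 (log2, SE 0.66) was not called (adjusted p = 0.405, limma). Its component of 3 tested rows added up to 19.3 and 23.6 FPKM in the mosaic wings, against 9.13 and 9.91 FPKM in the knockout forewings.

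In the other direction, c25404_g3 was at 0.65 and 1.09 FPKM in the large- and small-defect wings, against 19.3 and 11.4 FPKM in knockout forewings 1 and 2. Its levels were 6.25 and 10.02 FPKM in the wild-type forewings and 37.0 and 64.7 FPKM in the knockout hindwings, so both mosaic wings lay below all 6 melanin-stage libraries. The difference from the knockout forewings was -3.10 (log2, SE 0.54, adjusted p = 0.405, limma). Its component of 3 tested rows behaved likewise, with a sum of 0.97 and 1.29 FPKM in the mosaic wings, against 31.5 and 24.7 FPKM in the knockout forewings.

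The row c31577_g1, the only tested row of its component, was listed at 0 in both mosaic wings, against 18.1 and 30.9 FPKM in knockout forewings 1 and 2. It was present in every other melanin-stage library too, at 14.1 and 10.4 FPKM in the wild-type forewings and 24.9 and 36.3 FPKM in the knockout hindwings. The fitted difference of -4.63 (log2(FPKM + 1) scale, SE 0.46, adjusted p = 0.216, limma) is no bound, since the lower group is at 0. It passed with the mosaic wings entered as independent (adjusted p = 0.0229, limma), though both are from 1 animal. Without knockout forewing 1 or 2 the difference was -5.00 and -4.25. Over all alternatives its adjusted p ran from 0.00864 to 0.445.

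**Figure D3:**
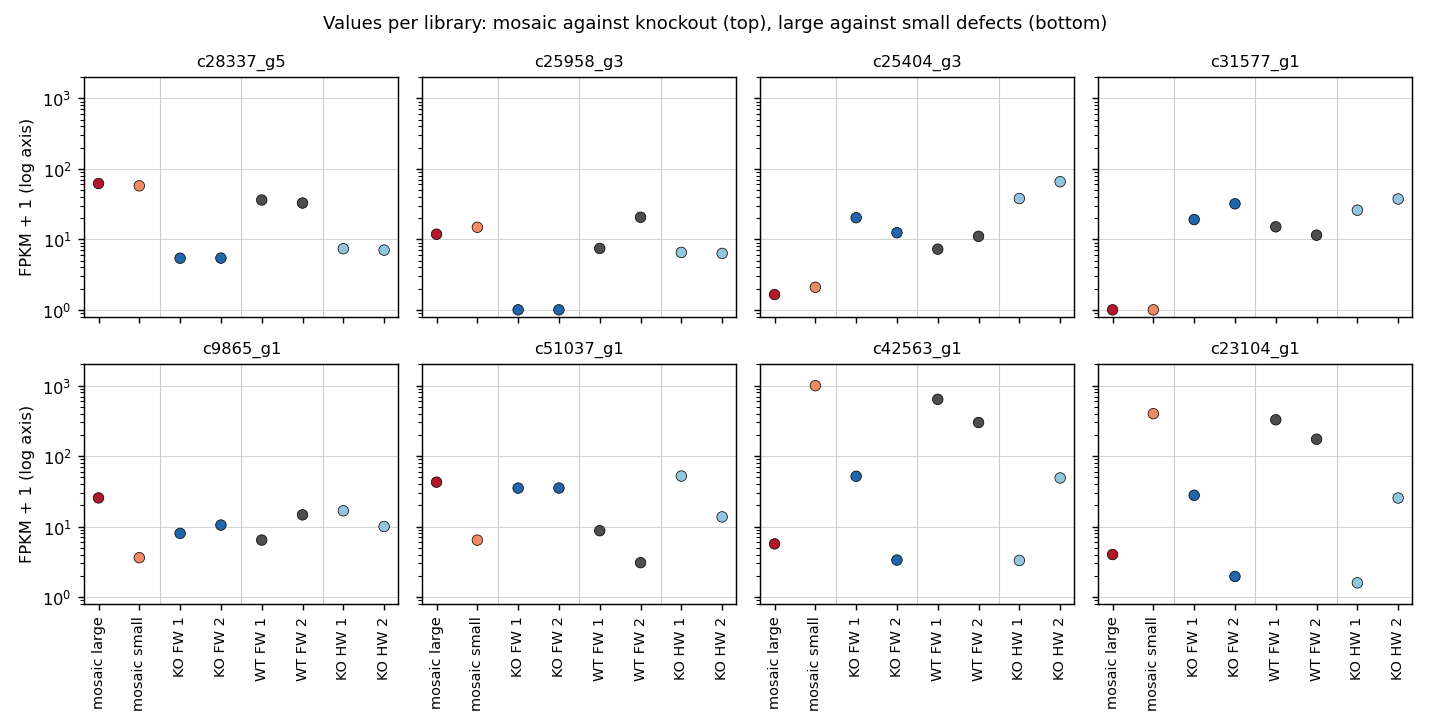
FPKM + 1 on a log axis (y) in each of the 8 V. cardui libraries (x: mosaic wings with large and small defects, knockout forewings, wild-type forewings and knockout hindwings) for 8 rows, 1 panel each and 1 point per library. In the upper panels both mosaic wings lie to the same side of both knockout forewings. In the lower panels the 2 wings of the mosaic animal lie far apart, with c42563_g1 and c23104_g1 high in the small-defect wing and the wild-type forewings.

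Rows present in one group and listed at 0 in the other were collected as well. Of the 18317 tested rows, 54 had at least 5 FPKM in both mosaic wings and 0 in both knockout forewings, the highest at 50.9 FPKM. Of these 54, 28 were above 0 in both wild-type forewings and 13 in both knockout hindwings. Only 3 were at 0 in all 6 melanin-stage libraries, where the large-defect wing held 6.69, 9.41 and 8.00 FPKM and the small-defect wing 17.2, 7.31 and 6.87 FPKM of them. The converse pattern, 0 in both mosaic wings and at least 5 FPKM in both knockout forewings, was held by 31 rows, the highest at 30.9 FPKM. Of these 31, 15 were above 0 in both wild-type forewings and 20 in both knockout hindwings. Over all 18317 tested rows, 17269 and 16427 were above 0 in wild-type forewings 1 and 2, each taken singly. The like counts were 16362 and 15840 in knockout hindwings 1 and 2. Rows above 0 in both libraries of a group were not counted over all tested rows. The joint counts for the 54 and 31 rows therefore have no like share beside them. Knockout forewing 1, with 2423 tested rows at 0, helps to define the first set, and its part in the excess of 54 over 31 was not tested. These rows are of low abundance, with medians of 7.54 and 8.51 FPKM in the large- and small-defect wings for the first set and of 8.29 and 8.41 FPKM in knockout forewings 1 and 2 for the second. An exact 0 can be a failed estimate of the deposited values, so a 0 here says only that the row is listed at 0.

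**Figure D4:**
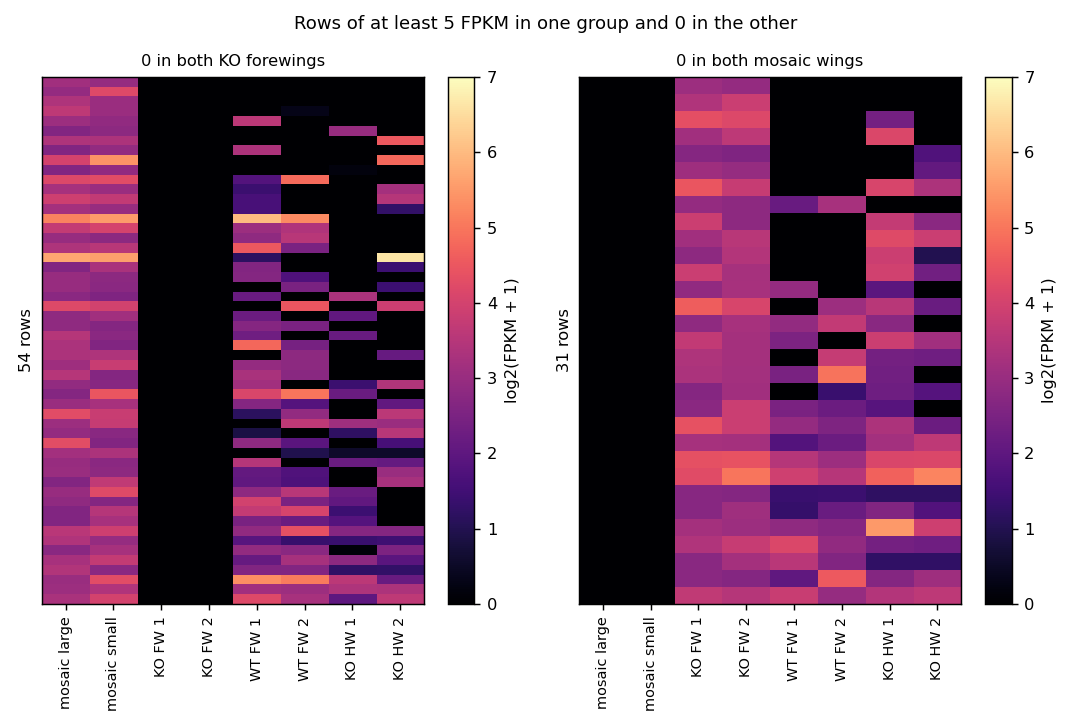
Levels as log2(FPKM + 1) (colour) of rows listed at 0 in both knockout forewings and at least 5 FPKM in both mosaic wings (left, 54 rows) and of the converse set (right, 31 rows), with 1 line per row and 1 column per library. Rows are sorted by how many of the wild-type forewing and knockout hindwing libraries hold them, and 3 rows of the left panel are at 0 in all 6 melanin-stage libraries.

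Of the rows separated by at least 2 (log2), 334 (1.82% of tested rows) were higher in the mosaic animal. In 126 of these (37.7%) both wings also exceeded the wild-type forewings and the knockout hindwings, against 27.0% of all rows separated above. Of the 190 (1.04%) that were lower, 56 (29.5%) lay below all 6 melanin-stage libraries, against 11.5% of all rows separated below. In the remaining rows at least 1 wild-type forewing or knockout hindwing reached the mosaic levels. Rows chosen for a larger gap to the knockout forewings are more likely to lie beyond other libraries as well. The higher shares at a gap of 2 are therefore partly built into the choice and are no separate result. Against the wild-type forewings of the melanin stage, which share the mosaic animal with the comparison above, 1 row was called (0.00546%, limma), and 1995 rows (10.9%) had an unadjusted p under 0.05. The called row, c16935_g1, was at 27.0 and 19.0 FPKM in the large- and small-defect wings, against 22926 and 15566 FPKM in the wild-type forewings (difference -9.64, adjusted p = 0.0459, limma). The knockout forewings, at 40.1 and 33.4 FPKM, were nearer to the mosaic wings. Without wild-type forewing 1 or 2 it was not called (adjusted p = 0.183 and 0.322, limma; from 0.000364 to 0.322 over all alternatives). It was named after its values were seen.

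The 2 wings of the mosaic animal differed from each other by at least 1 (log2) in 15.4% of rows. Pairs of melanin-stage libraries of the same label did so in more rows. Their shares were 17.6% for the wild-type forewings, 21.1% for the knockout hindwings and 22.9% for the knockout forewings. Between the mosaic wings the share was 23.0% among rows of 1 to 5 FPKM and 2.1% among rows of at least 100 FPKM. No row was called (0 of 18317, 0%, limma, smallest adjusted p = 0.269), and 578 (3.16%) had an unadjusted p under 0.05, 169 higher and 409 lower in the large-defect wing. This test takes its spread from pairs of melanin-stage libraries of the same label, not from wings known to come from 1 animal. The large-defect wing was higher by at least 1 (log2) in 931 rows (5.08%) and lower by as much in 1886 rows (10.3%). Quantile normalization made these counts 1470 and 1650, so the split depends on the scaling.

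The largest difference among rows above 0 in both wings was that of c42563_g1. It was at 4.68 FPKM in the large-defect wing, against 997 FPKM in the small-defect wing. Knockout forewings 1 and 2 held 50.7 and 2.35 FPKM and the knockout hindwings 2.31 and 47.9 FPKM, while the wild-type forewings held 637 and 298 FPKM. The small-defect wing was therefore above both wild-type libraries, and the large-defect wing lay within the range of the 4 melanin-stage knockout libraries. The row c23104_g1 ran in parallel, at 3.01 FPKM in the large-defect wing, against 398 FPKM in the small-defect wing. Here the knockout forewings held 26.8 and 0.96 FPKM, the knockout hindwings 0.59 and 24.4 FPKM, and the wild-type forewings 326 and 172 FPKM. In both rows knockout forewing 1 and knockout hindwing 2 held far more than the other knockout libraries. The wing differences were -7.46 (SE 2.59) and -6.64 (SE 2.58) on the log2 scale, and neither was called (adjusted p = 1 for each, limma).

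Rows higher in the large-defect wing differed by less. The row c9865_g1 was at 24.5 FPKM in the large-defect wing, against 2.62 FPKM in the small-defect wing, and c51037_g1 was at 41.7 against 5.42 FPKM. For c51037_g1 the knockout forewings held 34.1 and 34.2 FPKM and the wild-type forewings 7.73 and 2.07 FPKM, so the large-defect wing lay by the knockouts and the small-defect wing by the wild types. The row c9865_g1 showed no such order, with 7.01 and 9.51 FPKM in the knockout forewings and 5.43 and 13.7 FPKM in the wild-type forewings. Neither was called between the wings (adjusted p = 1 for each, limma).

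Rows that differ between the mosaic wings were then read in the melanin-stage forewings, which took no part in that choice. The level filter drew on the mosaic wings and the knockout forewings, but not on the wild types. Among the 3451 rows averaging at least 20 FPKM over the 4 libraries, 92 were at least 1 (log2) lower in the large-defect wing. In 49 of these 92 (53.3%) both knockout forewings lay below both wild-type forewings, against 15.6% of all rows of that level, and in 10 (10.9%) they lay above. A further 29 rows were at least 1 higher in the large-defect wing. In 19 of these 29 (65.5%) both knockout forewings lay above both wild types, against 45.1% of all rows of that level, and in 1 they lay below. The median difference of knockout minus wild-type forewings was -0.82 (log2) over the 92 rows, 1.17 over the 29 rows and 0.26 over all 3451. With knockout forewing 2 alone the counts were 51 of 92 below and 22 of 29 above both wild types (55.4% and 75.9%), against 19.6% below and 54.0% above over all rows of that level. Nearness to the mosaic wings gave no such order for the 92 rows. Both knockout forewings were nearer to the large-defect wing in 29 of them (31.5%) and nearer to the small-defect wing in 28 (30.4%), against 35.1% and 33.6% of all rows of that level. For the 29 rows higher in the large-defect wing these counts were 16 (55.2%) and 2 (6.9%). Depth moved in the same direction, since the small-defect wing and the wild types were deeper than the large-defect wing and the knockouts, and its part in this result was not tested. The counts use the deposited FPKM with no further scaling, and their dependence on scaling was not tested.

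**Figure D5:**
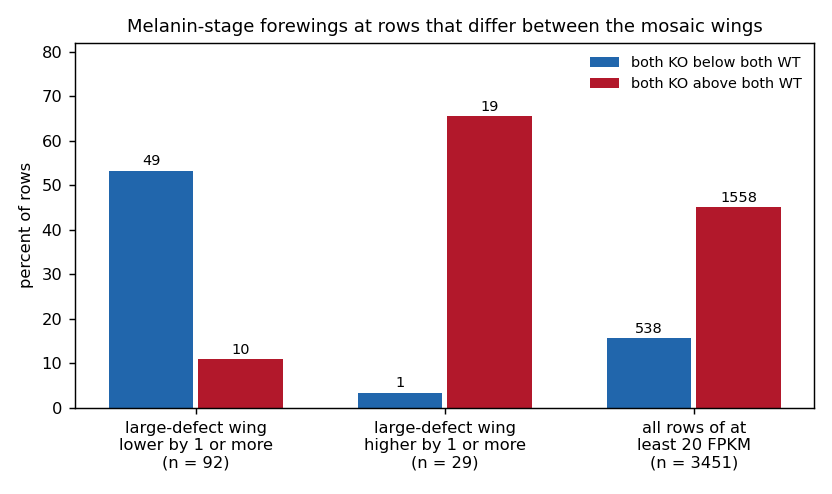
Percent of rows (y axis, number of rows above each bar) in which both melanin-stage knockout (KO) forewings lie below (blue) or above (red) both wild-type (WT) forewings. The 3 classes on the x axis, all of at least 20 FPKM, are rows at least 1 (log2) lower in the large-defect than in the small-defect mosaic wing, rows at least 1 higher in it, and all rows of that level. Blue leads in the first class (49 of 92 rows) and red in the second (19 of 29 rows).

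With no filter at 20 FPKM and the same difference of at least 1, the knockout forewings lay below both wild types in 818 of 1886 rows lower in the large-defect wing (43.4%, against 27.4% of all tested rows) and above them in 162 (8.6%, against 26.7%). Of the 931 rows higher in the large-defect wing, they lay below in 131 (14.1%) and above in 209 (22.4%), a share under that of all tested rows. A difference of at least 2 was read over all levels as well. Of 570 rows at least 2 lower in the large-defect wing, the knockout forewings lay below both wild types in 226 (39.6%) and above them in 32 (5.6%). Of 249 rows at least 2 higher in it, they lay below in 29 (11.6%) and above in 31 (12.4%). Most of these rows are listed at 0 in 1 of the mosaic wings, 473 of the 570 and 223 of the 249.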

How the data were processed

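RNA was sequenced as paired-end reads of 36 bp after poly(A) selection and 15 PCR cycles, per the labels' protocols. The authors deposited FPKM per assembly row and library. Bowtie2 was used, per the submitters' processing notes. Its version, the assembler, the quantification program and the scaling are not stated there. Per the file headers, 2 further columns match no labelled sample and were not used. Relative depth was fitted from values under 0.6 FPKM; 27 of 28 library pairs fitted to within 0.1 (log2), and wild-type forewing 1 with knockout forewing 1 was off by 0.99.

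A group-means model with a mean-variance trend (limma 3.58.1, R 4.3.3) was fitted to log2(FPKM + 1), a scale that understates changes of low rows. It held the 6 melanin-stage V. cardui libraries plus the mosaic animal, as the mean of its wings or as 2 single wings. P-values are two-sided and adjusted by the Benjamini-Hochberg method. The code was tested on simulated data.

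For the mosaic animal, 1 row above 0 in all 4 libraries and 1 row at 0 in the lower group were named per direction: the largest separated differences whose component changes by at least 1 (log2) the same way. As none was called, rows at an unadjusted p under 0.01 were taken. Between the wings, the 2 largest differences per direction were named among rows above 0 in both and of at least 10 FPKM in 1. Members, lists and tests were chosen with earlier results of these data known.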

Additional observations from a re-analysis of the deposited data

How the results depend on the processing

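With each alternative to the pseudocount, filter of at least 5 FPKM, scaling, variance trend, component sums or a fit of only the 4 forewings, no row was called for the mosaic animal or either wing against the knockout forewings, nor, where run, between the wings. Without the filter on low values the calls were 2590 (mosaic animal), 1883 (small-defect wing) and 1169 (large-defect wing) against knockouts, 2469 between the wings and 2945 against wild types. Of these, 2305, 1506, 975, 2191 and 2309 are at 0 in all 6 melanin-stage libraries, where the spread is 0. Leaving out 1 knockout forewing gave 259 to 383 calls for the mosaic animal, 203 to 352 for the small-defect wing, 210 to 290 for the large-defect wing and 193 to 196 between the wings. The single call against the wild types was lost (0 calls) with a pseudocount of 0.1, median-of-ratios scaling, no variance trend, or without wild-type forewing 1 or 2 (0 calls each). Entering both wings as independent gave 10 calls against knockouts and 72 against wild types. No named row changed direction. No paired analysis was possible because both mosaic wings are from 1 animal, which has no counterpart in the other groups. With 1 mosaic animal, the spread between animals at the ommochrome stage is unknown.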

Other observations

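Abundant rows with the largest separated differences were read after their values were seen, and none was called. Of 850 rows averaging at least 100 FPKM, 15 were separated and at least 1 (log2) higher in the mosaic animal and 17 at least 1 lower. The 2 rows with the largest positive differences belong to 1 assembly component. The first was at 256 and 204 FPKM in the large- and small-defect wings, against 5.09 and 4.68 FPKM in knockout forewings 1 and 2 (difference 5.29, SE 2.52, adjusted p = 0.9995, limma). The second was at 421 and 416 FPKM in the mosaic wings, against 10.8 and 14.3 FPKM in the knockout forewings. The wild-type forewings held 300.3 and 413.0 FPKM of the first. The 2 knockout hindwings were far apart, at 11.8 and 1030 FPKM for the first row and 24.9 and 1040 FPKM for the second, so a low level was not shared by all melanin-stage knockout libraries. The row with the largest negative difference was at 45.5 and 50.8 FPKM in the large- and small-defect wings, against 191 and 193 FPKM in the knockout forewings (difference -1.98, SE 0.79, adjusted p = 0.9995, limma).

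Of 881 rows reaching 100 FPKM in a mosaic wing, 0 were at least 10 times higher in the large-defect wing and 4 in the small-defect wing. Besides c42563_g1 and c23104_g1, these were a row listed at 0 in the large-defect wing, against 413.5 FPKM in the small-defect wing, and another listed at 0, against 135 FPKM. Unlike the first pair, these were at most 4.40 and 4.87 FPKM in the wild-type forewings and 3.97 and 4.71 FPKM in the knockout forewings. There were 11 rows of at least 10 FPKM in the large-defect wing and 0 in the small-defect wing, against 52 of the converse kind.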
